A study of Mus musculus with 6 samples.

Results

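The Rhox genes are a family of reproductive homeobox genes that lie side by side on the mouse X chromosome. The members described here, in ovaries of newborn mice, are Rhox5, Rhox6, Rhox8, Rhox9, Rhox10 and Rhox13. They were taken by their symbols from a deposited expression table of 47122 gene models, in which 36 genes have a name beginning with Rhox, so that 6 of 36 are members and the other 30 serve as the rest of the family. The group was chosen by family name and by the measured FPKM values of Rhox8, which were higher in every conditional knockout library than in any wild-type library, so the Rhox8 difference between genotypes is given as a description without a test.

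A homeobox encodes a DNA-binding domain, and proteins that carry it switch other genes on or off. In the mouse, Rhox genes are expressed mainly in the gonads and the placenta. Rhox5 and Rhox8 are known from somatic support cells, the Sertoli cells of the testis and the granulosa cells of the ovary, while Rhox6, Rhox9, Rhox10 and Rhox13 are known from germ cells or the placenta. Several genes of the cluster are kept silent in other tissues by DNA methylation of their promoters.

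RNA sequencing was done on total RNA of ovaries of mice aged 1 day post partum (dpp). The ovaries came from a conditional knockout of Bcas2 (cKO, 3 libraries) and from wild type (WT, 3 libraries). Bcas2 encodes a subunit of a complex of the spliceosome, and according to the series' design it was removed in oocytes to compare gene expression between the genotypes. The line that drives the deletion, the deleted exons, the genotype of the WT mice at that locus, and whether a library holds 1 animal or a pool are not stated in the labels. One label field names granulosa cells, but ovary is given in the title, the source and the tissue field. The p-values measure only the spread between these libraries. In bulk tissue, fewer cells of a type and less RNA per cell cannot be told apart.

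Bcas2 had 18.9, 21.9 and 18.3 FPKM in the cKO libraries and 54.5, 37.5 and 35.7 FPKM in the WT libraries, FPKM being a fragment number divided by gene length and sequencing depth. Every cKO library was below every WT library, with an exact two-sided permutation p of 0.1, the smallest that 3 against 3 allows. Between 16800421 and 19565275 gene reads per library were recovered from the values, so that a single read over 1 kb gave 0.0512 to 0.0594 FPKM. WT replicate 1 stood apart on the first principal component and was the highest library in endothelial and stromal markers, with 1551 FPKM over 9 stromal genes against 452.8 to 579.2 FPKM in the cKO libraries, and cKO replicate 2 had far more haemoglobin mRNA than the others. Of 14589 genes with at least 1 FPKM in at least 3 libraries, limma on log2(FPKM + 1) called 0 at an adjusted p under 0.05, a background of 0%. At an unadjusted p under 0.05 limma counted 443 genes (3.04%) and limma-voom on the recovered reads counted 362, with 0 called. Genes whose cKO and WT values did not overlap made up 4.2% of the tested genes in the higher direction and 3.67% in the lower direction, or 7.88% in either.

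The homeobox is where the 6 members can be lined up, and it shows how far each can be told from the others in sequencing. The 90 coding bases that best match between Rhox8 and Rhox9 without a gap were read from the GENCODE M21 transcripts (GRCm38, X chromosome), 5′ to 3′ along each gene's own strand. Capitals mark bases that differ from Rhox9, which is in lower case throughout.
Rhox8: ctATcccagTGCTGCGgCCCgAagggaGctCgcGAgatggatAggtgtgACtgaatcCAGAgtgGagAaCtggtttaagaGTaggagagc
Rhox5: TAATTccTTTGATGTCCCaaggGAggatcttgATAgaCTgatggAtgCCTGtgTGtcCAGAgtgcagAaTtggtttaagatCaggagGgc
Rhox13: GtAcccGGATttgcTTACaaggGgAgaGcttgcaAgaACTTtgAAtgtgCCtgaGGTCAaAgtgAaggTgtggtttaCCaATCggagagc
Rhox6: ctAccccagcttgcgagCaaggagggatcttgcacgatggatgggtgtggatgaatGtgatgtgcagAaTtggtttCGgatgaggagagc
Rhox9: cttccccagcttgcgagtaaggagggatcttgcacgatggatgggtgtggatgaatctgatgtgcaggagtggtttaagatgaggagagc
Rhox10: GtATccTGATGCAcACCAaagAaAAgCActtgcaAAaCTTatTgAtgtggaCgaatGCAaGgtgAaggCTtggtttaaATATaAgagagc

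Rhox6 had the same base as Rhox9 at 83 of these 90 positions. Rhox8 shared 61, Rhox13 55, Rhox5 52 and Rhox10 51 of the 90 with Rhox9. The letters tggttt, which encode the tryptophan and phenylalanine of the homeodomain's recognition helix, stood in frame in all 6 sequences. Rhox6 and Rhox9 also share an identical coding run of 161 bases, which starts at coding base 167 in both and is shown as the longest of the stretches in which their reads could not be assigned by sequence alone.
Rhox6 and Rhox9: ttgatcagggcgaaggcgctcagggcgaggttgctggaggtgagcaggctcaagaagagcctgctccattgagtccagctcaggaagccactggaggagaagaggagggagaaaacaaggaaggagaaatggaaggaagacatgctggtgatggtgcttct

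Divided into all words of 50 bases, 16.6% of the Rhox6 words and 6.28% of the Rhox9 words also occurred in another gene of the annotation, in each case the partner of the pair. The words were pooled over all annotated transcripts of a gene, 961 for Rhox6 and 2531 for Rhox9, with the same 159 shared. The lower percentage of Rhox9 thus reflects its larger word total and does not make its reads less ambiguous. Rhox5, Rhox10 and Rhox13 shared no such word with any gene. Rhox8 shared 4.61% of its words with genes outside the family and 0% with other Rhox genes. The read length behind the deposited values is not stated in the labels.

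Rhox8 encodes a homeodomain protein of the somatic cells of both gonads. Its gene model has identifier 434768 and spans X:36963657-36979643 on the minus strand of GRCm39. Rhox8 measured 9.60, 9.95 and 10.4 FPKM in the cKO libraries, against 4.997, 5.61 and 7.40 FPKM in the WT libraries. All 3 cKO libraries lay above all 3 WT libraries, the cKO values within a narrow band and the WT values spread, with WT replicate 3 nearest to the cKO range. The mean was 9.98 ± 0.403 FPKM in cKO ovaries and 6.004 ± 1.25 FPKM in WT ovaries (SD, n = 3 each), a ratio of means of 1.66. On the log2(FPKM + 1) scale the cKO mean exceeded the WT mean by 0.66, with a standard error of 0.14.

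The Rhox8 values rested on 226, 227 and 261 reads in the cKO libraries and 118, 132 and 196 reads in the WT libraries. Among the cKO libraries these counts differed by no more than sampling noise, with a chi-square of 0.395 per degree of freedom. Among the WT libraries the chi-square was 6.55 per degree of freedom, so the WT libraries differed from each other beyond counting error, as libraries did over all genes, where pairs gave 22.3 to 66.6 per degree of freedom in WT and 13.3 to 30.4 in cKO. The groups came closest at cKO replicate 1 and WT replicate 3. The 95% counting interval was 8.39 to 10.9 FPKM for cKO replicate 1 and 6.40 to 8.52 FPKM for WT replicate 3. These intervals overlapped slightly at their ends, which does not show that the libraries differed by counting error alone. Without WT replicate 1, which stood apart, the difference was 0.56, and without both WT replicate 1 and cKO replicate 2 it was 0.56. The deposited model of Rhox8 spans 15987 bases, against 4167 bases in GENCODE M21, and overlaps Rhox7b by 4220 bases on the same strand. Reads in that overlap could belong to either gene.

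Rhox5, the founding gene of the family and a transcription factor of Sertoli and granulosa cells, was lower than Rhox8 in every library. Its model, identifier 18617, lies at X:36891657-36897305 on the plus strand. Rhox5 measured 2.38, 3.62 and 1.99 FPKM in the cKO libraries and 2.91, 2.25 and 3.77 FPKM in the WT libraries. The groups overlapped, with cKO replicate 2 and WT replicate 3 high in their own groups. The means were 2.67 ± 0.853 FPKM in cKO ovaries and 2.98 ± 0.761 FPKM in WT ovaries (SD, n = 3 each). The log2 difference was -0.12, with a 95% interval of -0.64 to 0.39 and a limma adjusted p of 0.964, so a change of moderate size in either direction was not detectable with these libraries.

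Rhox13, whose protein is found in germ cells of the fetal ovary and of the testis before meiosis, was the lowest of the 3 members that passed the filter on low values. Its model, identifier 73614, lies at X:37209717-37218843 on the plus strand and is overlapped over 8323 bases by Gm39506 on the other strand. Rhox13 measured 1.42, 1.47 and 1.08 FPKM in the cKO libraries and 1.88, 0.873 and 1.88 FPKM in the WT libraries. The groups overlapped, with WT replicates 1 and 3 highest and WT replicate 2 lowest of all. The mean was 1.32 ± 0.214 FPKM in cKO ovaries and 1.54 ± 0.580 FPKM in WT ovaries (SD, n = 3 each). The log2 difference was -0.11, with a 95% interval of -0.61 to 0.40 and a limma adjusted p of 0.972. The overlap is one of gene spans, and the exons of Rhox13 and Gm39506 were not compared. The labels do not state whether the counting used strand, so reads in any shared exon could belong to either gene.

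The other 3 members stayed below the filter and were not tested. Rhox6, known from placenta and germ cells, had 5, 9 and 14 reads in the cKO libraries and 9, 5 and 7 reads in the WT libraries. Its mean was 0.608 ± 0.271 FPKM in cKO ovaries and 0.448 ± 0.135 FPKM in WT ovaries (SD, n = 3 each), with overlapping values. Its model, identifier 19202, lies at X:36915932-36918734 on the plus strand.

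Rhox9, the near copy of Rhox6 shown in the sequences, had 2, 12 and 3 reads in the cKO libraries and 5, 5 and 7 reads in the WT libraries. Most of its cKO reads came from cKO replicate 2, and the groups overlapped at 0.374 ± 0.377 FPKM in cKO ovaries and 0.353 ± 0.0464 FPKM in WT ovaries (SD, n = 3 each). Its model, identifier 104384, lies at X:36987974-36990647 on the minus strand. Summed to avoid the uncertain split within the pair, Rhox6 and Rhox9 had 0.403, 1.25 and 0.918 RPM (reads scaled to library size alone, not to gene length) in the cKO libraries and 0.803, 0.576 and 0.717 in the WT libraries, which also overlapped.

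Rhox10, known for its part in founding the spermatogonial stem cells of the mouse testis, was the lowest of the 6 on average. It had 4, 8 and 3 reads in the cKO libraries and 2, 1 and 4 reads in the WT libraries. That corresponded to 0.380 ± 0.217 FPKM in cKO ovaries and 0.165 ± 0.0976 FPKM in WT ovaries (SD, n = 3 each), with overlapping values and too few reads to order the groups. Its model, identifier 434769, lies at X:37155352-37160565 on the plus strand.

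**Figure D1:**
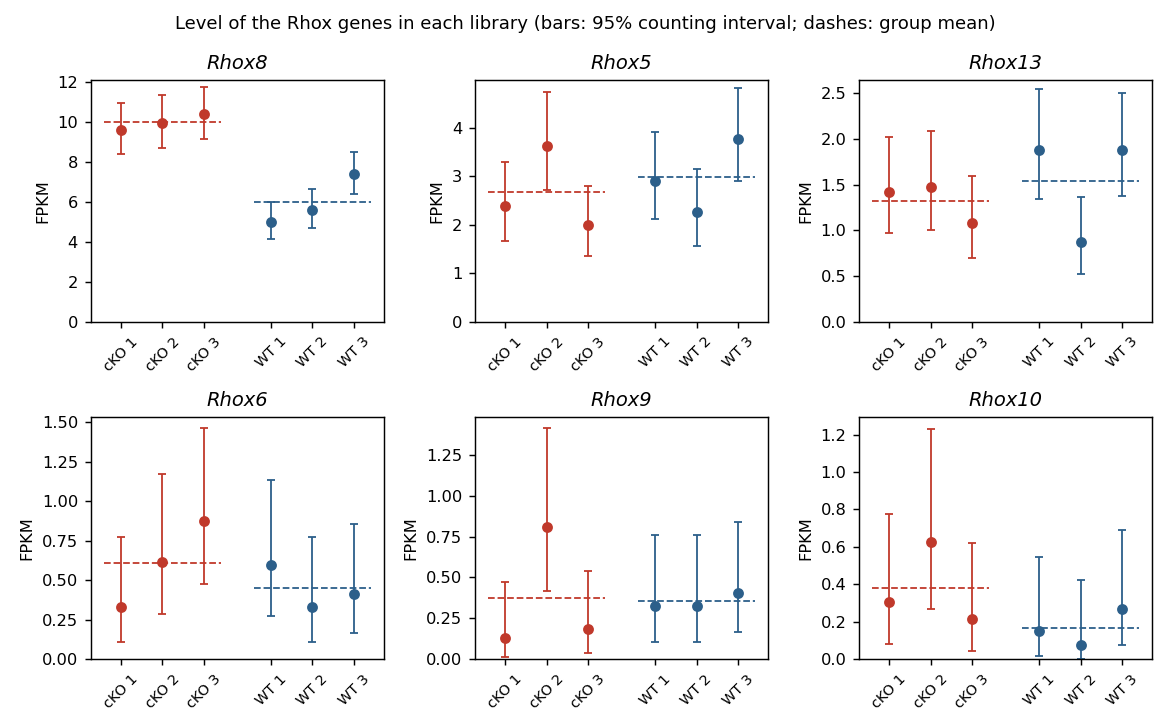
FPKM of each of the 6 members in each library, with cKO points left of WT points and a bar at each group mean. Only Rhox8 has all cKO points (9.60 to 10.4 FPKM) above all WT points (4.997 to 7.40 FPKM).

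Within each library the order of levels per length was the same for the upper 3 members. Rhox8 ranked 1, Rhox5 ranked 2 and Rhox13 ranked 3 among the 6 members in all 6 libraries, and the ranges of these 3 over the libraries did not overlap. Rhox6, Rhox9 and Rhox10 followed at ranks 4 to 6 and did not differ beyond their spread. Of the members that could be tested, 1 of 3 had groups that did not overlap (7.88% of all tested genes), which is Rhox8 and follows from how it was picked.

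The rest of the family shows what Rhox8 stood among. Of the other 30 Rhox genes, 9 had no read in any library and 12 had between 1 and 20 reads in total, while 5 passed the filter. Rhox1, at one end of the cluster, was the highest Rhox gene and measured 13.0, 18.8 and 10.7 FPKM in the cKO libraries and 13.0, 12.9 and 20.5 FPKM in the WT libraries. Its groups overlapped, with the same high libraries as Rhox5, and the log2 difference was -0.12 with a standard error of 0.25 and a limma adjusted p of 0.972.

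Rhox2a measured 1.66, 1.57 and 2.01 FPKM in the cKO libraries and 2.69, 2.42 and 3.45 FPKM in the WT libraries. Every cKO library lay below every WT library, which holds for 3.67% of all tested genes, and the log2 difference was -0.48 with a standard error of 0.15 and a limma adjusted p of 0.955. Since 91.1% of its 50-base words also occur in other Rhox genes, its reads may be shared with its copies. Summed over the 8 genes Rhox2a to Rhox2h, a sum formed after the single values had been seen, there were 2.82, 3.51 and 2.59 RPM in the cKO libraries and 4.19, 3.69 and 4.71 in the WT libraries. The sum averaged 2.97 ± 0.476 RPM in cKO ovaries and 4.195 ± 0.512 RPM in WT ovaries (SD, n = 3 each), and its groups did not overlap, but it includes Rhox2a itself. Without Rhox2a, the 7 other copies had 25, 37 and 17 reads in the cKO libraries and 34, 29 and 36 reads in the WT libraries. These overlapped, with cKO replicate 2 the highest of all.

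The Rhox7 genes also share much sequence, with 55.6% of the words of Rhox7a and 70.8% of those of Rhox7b found elsewhere. Rhox7a averaged 1.68 ± 0.694 FPKM in cKO ovaries and 2.19 ± 0.453 FPKM in WT ovaries, and Rhox7b 2.22 ± 0.771 FPKM in cKO ovaries and 2.06 ± 0.485 FPKM in WT ovaries (SD, n = 3 each). Both overlapped between the groups. The deposited annotation lists Rhox7b as a pseudogene and Rhox7a as protein-coding. Rhox7-ps1, a pseudogene outside the cluster, measured 0.641, 0.809 and 1.27 FPKM in the cKO libraries and 1.49, 1.85 and 2.03 FPKM in the WT libraries, without overlap. It passed the filter through its WT values alone, so its log2 difference of -0.56 was in part fixed by the filter. The 3 Rhox7 genes together had 3.91, 6.06 and 3.73 RPM in the cKO libraries and 5.05, 5.01 and 6.81 in the WT libraries, which overlapped.

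Among the Rhox genes below the filter other than the members, the highest 3 were copies of Rhox2. Rhox2g averaged 0.598 ± 0.174 FPKM in cKO ovaries and 0.503 ± 0.125 FPKM in WT ovaries, Rhox2d 0.363 ± 0.222 FPKM in cKO ovaries and 0.648 ± 0.0712 FPKM in WT ovaries, and Rhox2b 0.214 ± 0.260 FPKM in cKO ovaries and 0.349 ± 0.136 FPKM in WT ovaries. All Rhox3 genes together stayed at or below 0.41 RPM, and all Rhox4 genes at or below 0.461.

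Over all 8 Rhox genes that passed the filter, 2 differences were above 0 and 6 below, with a median of -0.12. Over all tested genes the median was -0.0058, with 7098 above 0 and 7491 below. The sign of Rhox8 was set by how it was picked, and that of Rhox7-ps1 was favoured by the filter. The tally of the 8 is therefore a description only. The 2 above 0 were Rhox8, at 0.66, and Rhox7b, which was at 0.06 and turned below 0 on a TPM scale (-0.0007).

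**Figure D2:**
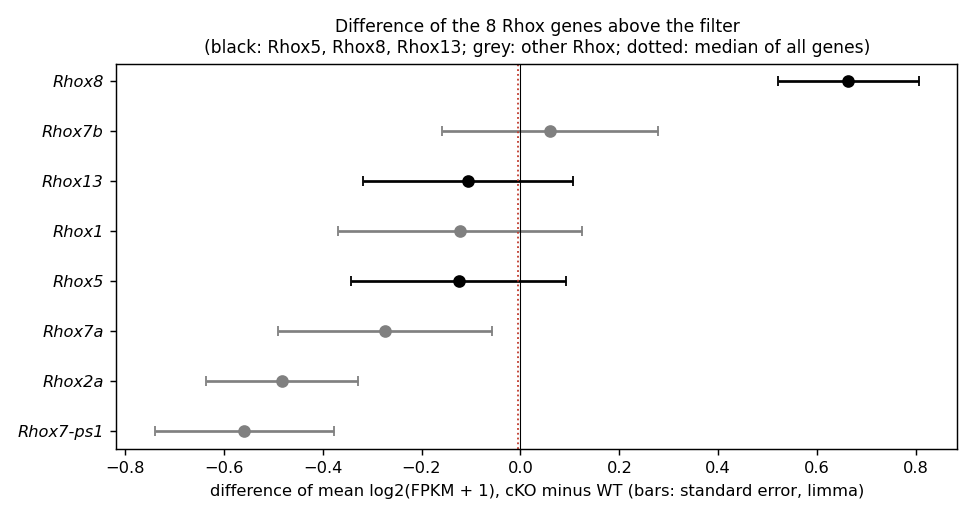
Difference of mean log2(FPKM + 1), cKO minus WT, for the 8 Rhox genes that passed the filter, with standard errors from limma. Rhox8 lies at 0.66, Rhox7b near 0 at 0.06, and the other 6 below 0 down to -0.56 for Rhox7-ps1.

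The share of Rhox8 among all Rhox reads was taken next. All Rhox genes together had 645, 811 and 654 reads in the cKO libraries and 602, 565 and 951 reads in the WT libraries, with overlapping totals. Rhox8 took 35.04%, 28.0% and 39.9% of these in the cKO libraries and 19.6%, 23.4% and 20.6% in the WT libraries. The share was higher in every cKO library, as the rule that picked Rhox8 favours. Rhox1 took 33.6%, 37.5% and 29.1% in the cKO libraries and 36.1%, 38.1% and 40.5% in the WT libraries. Per unit of length, Rhox8 stood at 0.739, 0.530 and 0.974 times the FPKM of Rhox1 in the cKO libraries and at 0.386, 0.435 and 0.361 times in the WT libraries.

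The 35 Rhox genes of the cluster stretch over 741387 bases, from position 36477457 to 37218843 of the X chromosome. Expression was uneven along it. Rhox1 and Rhox2a lay at one end, the long block of Rhox3, Rhox4 and further Rhox2 copies stayed below 1 FPKM on average, and Rhox5, Rhox7a, Rhox8 and Rhox7b followed above 1 FPKM, with Rhox6 and Rhox9 below 1 FPKM among them. Rhox10 and Rhox13 lay at the far end.

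**Figure D3:**
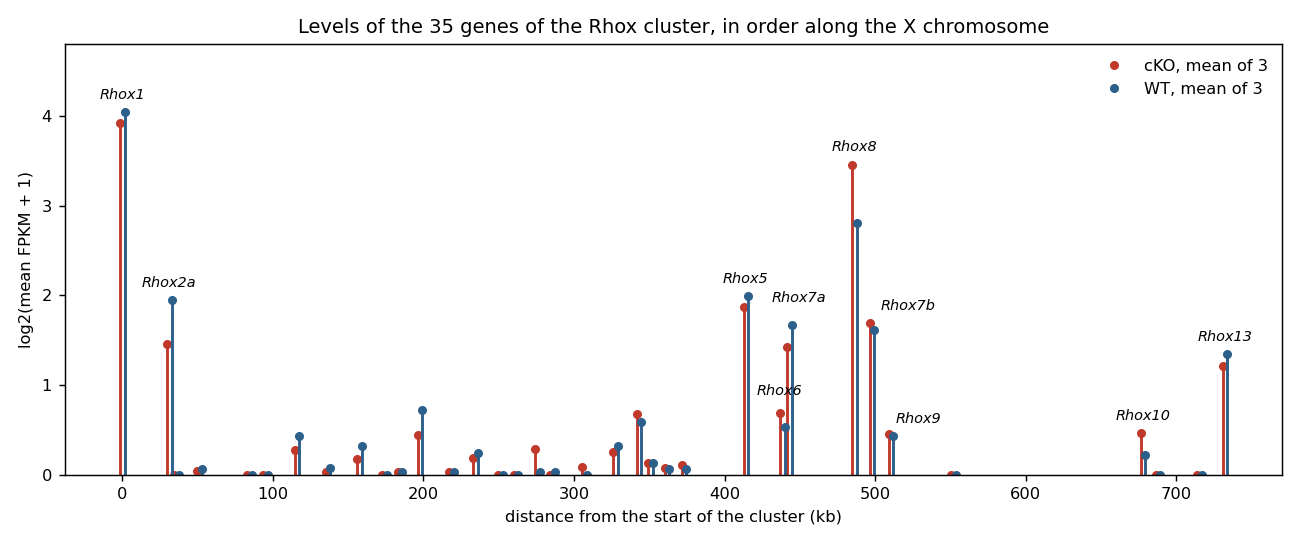
Log2 of group mean FPKM + 1 for each of the 35 genes of the cluster, placed by distance from the cluster's start in kilobases, with cKO lines left of WT lines. Rhox1 is the tallest, and Rhox8 is the tallest of the 6 members and stands higher in cKO than in WT, while Rhox2a stands lower.

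Other genes in and around the cluster were counted as well. Inside it or within 1 Mb of its ends the table has 64 genes that are not Rhox genes, of which 29 passed the filter, including the pseudogene LOC108168497 inside the cluster. Limma called 0 of the 29, with 1 at an unadjusted p under 0.05. Of these 29, 17 differences were above 0 and 12 below, with a median of 0.06. The groups did not overlap for 3 genes that were higher in cKO and 2 that were lower. Over all tested genes the shares were 4.2% higher and 3.67% lower.

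The nearest tested neighbours before the cluster were Rnf113a1, which encodes a zinc finger protein of the spliceosome, and Ndufa1, which encodes a subunit of mitochondrial complex I. Rnf113a1 averaged 2.51 ± 0.659 FPKM in cKO ovaries and 2.90 ± 0.629 FPKM in WT ovaries, a log2 difference of -0.15. Ndufa1 averaged 69.8 ± 19.5 FPKM in cKO ovaries and 61.7 ± 19.2 FPKM in WT ovaries (SD, n = 3 each), a log2 difference of 0.18.

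After the cluster came Zbtb33, which encodes the methyl-DNA-binding factor Kaiso, and Tmem255a, which encodes a membrane protein. Zbtb33 averaged 10.5 ± 0.805 FPKM in cKO ovaries and 12.1 ± 0.478 FPKM in WT ovaries (SD, n = 3 each), without overlap, a log2 difference of -0.18. Tmem255a measured 2.28, 2.21 and 2.11 FPKM in the cKO libraries and 10.4, 3.01 and 2.03 FPKM in the WT libraries, so its log2 difference of -0.69 rested on WT replicate 1. Gm14567, named after its values were seen, measured 3.65, 3.10 and 2.45 FPKM in the cKO libraries and 1.69, 1.57 and 2.09 FPKM in the WT libraries, without overlap, a log2 difference of 0.54.

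Known regulators of Rhox genes were read from a list of 16 genes, of which 14 passed the filter. Limma called 0 of the 14 in either direction, with 0 at an unadjusted p under 0.05, 3 differences above 0 and 11 below, and a median of -0.11 beside -0.0058 over all tested genes. The differences ran from -0.27 for Gata4 to 0.15 for Gabpb1. For 2 of the 14 the groups did not overlap, both lower in cKO, beside 3.67% in that direction over all tested genes.

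Of the DNA methylation genes on the list, the maintenance methyltransferase gene Dnmt1 averaged 29.5 ± 2.92 FPKM in cKO ovaries and 31.9 ± 1.12 FPKM in WT ovaries. The de novo methyltransferase gene Dnmt3a averaged 9.07 ± 0.930 FPKM in cKO ovaries and 10.05 ± 1.63 FPKM in WT ovaries, and Dnmt3b 4.76 ± 0.754 FPKM in cKO ovaries and 4.78 ± 0.269 FPKM in WT ovaries. Uhrf1, which brings Dnmt1 to newly copied DNA, averaged 59.2 ± 3.02 FPKM in cKO ovaries and 57.7 ± 15.7 FPKM in WT ovaries, and Dnmt3l, a cofactor of de novo methylation, was below the filter (SD, n = 3 each).

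The genes without overlap, Ehmt2 and Ehmt1, both encode histone H3 methyltransferases. Ehmt2 averaged 43.7 ± 1.61 FPKM in cKO ovaries and 47.3 ± 1.47 FPKM in WT ovaries, a log2 difference of -0.11. Its partner Ehmt1 averaged 19.8 ± 0.702 FPKM in cKO ovaries and 22.2 ± 2.30 FPKM in WT ovaries, a log2 difference of -0.15. The Ehmt1 groups nearly touched, at 20.6 FPKM in cKO replicate 3 and 20.7 FPKM in WT replicate 3. Setdb1, another histone H3 methyltransferase gene on the list, overlapped, with 34.0 ± 0.545 FPKM in cKO ovaries and 34.1 ± 2.08 FPKM in WT ovaries (SD, n = 3 each).

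Of the transcription factors on the list, Gata4, a factor of gonadal somatic cells, averaged 69.2 ± 9.21 FPKM in cKO ovaries and 85.0 ± 22.5 FPKM in WT ovaries. Nr5a1 averaged 42.4 ± 2.01 FPKM in cKO ovaries and 40.1 ± 6.19 FPKM in WT ovaries, and Wt1 122.3 ± 10.1 FPKM in cKO ovaries and 135.1 ± 22.9 FPKM in WT ovaries, both being genes of gonad formation. The limma adjusted p of Gata4 was 0.955.

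The tissue was checked against marker lists, since Rhox8 and Rhox5 are genes of support cells. The 12 pregranulosa markers all passed the filter, and their FPKM summed to 601.8 to 719.3 in cKO libraries and 559.7 to 720.7 in WT libraries. The 12 oocyte markers also passed, and their sums were 1144.3 to 1526.8 FPKM in cKO libraries and 1033.6 to 1549.6 FPKM in WT libraries. The labelled ovary thus had its defining cell types in both genotypes, with overlapping sums.

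Foxl2, the granulosa cell transcription factor, measured 82.3, 98.0 and 105.7 FPKM in the cKO libraries and 163.2, 101.5 and 82.3 FPKM in the WT libraries. As a percentage of Foxl2, Rhox8 stood at 11.7, 10.2 and 9.84 in the cKO libraries and 3.06, 5.53 and 9.003 in the WT libraries. The lowest cKO and the highest WT value on this scale lay close together, and the order of the groups is one that the choice of Rhox8 favours. Of the 12 pregranulosa markers, the groups did not overlap for Rspo1 alone, beside 4.2% of all tested genes in the higher direction. Rspo1, a WNT-pathway ligand of the early ovary, measured 77.6, 81.1 and 76.0 FPKM in the cKO libraries and 57.8, 71.2 and 54.5 FPKM in the WT libraries.

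Sertoli cell markers were low. Of 8 on the list 4 passed the filter, and the FPKM of the list summed to 11.6 to 14.3 in cKO libraries and 9.94 to 16.1 in WT libraries. Sox9, the factor that defines Sertoli cells, measured 1.44, 1.20 and 0.79 FPKM in the cKO libraries and 1.83, 0.88 and 1.00 FPKM in the WT libraries, and overlapped between them.

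Some markers of the mesonephros and oviduct, ducts that lie beside the ovary, were also higher in every cKO library. Of 13 markers 10 passed the filter and limma called 0, with a median log2 difference of 0.41 over the 10. The groups did not overlap for 3 of the 10, all higher in cKO, beside 4.2% of all tested genes in that direction. The sums over all 13 were 342.3 to 411.8 FPKM in cKO libraries and 200.3 to 375.6 FPKM in WT libraries, which overlapped. No marker of the list was at 0 in all libraries, but Pax2, Lhx1 and Wnt7a stayed below the filter. Pax2 averaged 0.096 FPKM in cKO ovaries and 0.042 FPKM in WT ovaries, and Lhx1 0.013 and 0.031 FPKM. Wnt7a averaged 0.675 FPKM in cKO ovaries and 0.716 FPKM in WT ovaries. Cldn3, an epithelial tight-junction gene, measured 4.15, 2.63 and 3.38 FPKM in the cKO libraries and 0.591, 0.866 and 1.09 FPKM in the WT libraries. Besides Cldn3, the groups did not overlap for Pax8, a duct transcription factor, and Foxj1, a factor of ciliated cells. Foxj1 measured 1.12, 1.03 and 1.23 FPKM in the cKO libraries and 0.581, 0.396 and 0.278 FPKM in the WT libraries. It passed the filter through its cKO values alone. Cldn3 also needed its cKO values to pass, with WT replicates 1 and 2 below 1 FPKM. The higher direction of Foxj1 and Cldn3 was thus favoured by the filter. Emx2, a urogenital homeobox gene, had a difference of -0.13, and Ovgp1, which encodes an oviduct glycoprotein, 0.03. The part of such tissue in the Rhox8 difference was not tested.

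Immediate-early genes, which respond quickly to stress on cells, were read from a list of 9, of which 8 passed the filter. Their sums were 55.2, 57.01 and 78.1 FPKM in the cKO libraries and 187.4, 536.5 and 62.5 FPKM in the WT libraries, with a median log2 difference of -1.02. Limma called 0 of the 8, and the groups overlapped. WT replicates 1 and 2, the libraries lowest in Rhox8, were the highest in these genes, and WT replicate 3 was within the cKO range. The part of this response in the Rhox8 difference was not tested.

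Within the genotypes the Rhox genes also varied from library to library. WT replicate 3 had the highest WT value for all 8 Rhox genes that passed the filter, though for Rhox13 it stood at 1.878 FPKM beside 1.876 FPKM in WT replicate 1. In the cKO group, replicate 2 was highest for Rhox1, Rhox5, Rhox7a, Rhox7b and Rhox13, and replicate 3 for Rhox8, Rhox2a and Rhox7-ps1. WT replicate 3 and cKO replicate 2 were also the highest of their groups in oocyte markers, whose mean centred log2 level was -0.02, 0.15 and -0.10 in the cKO libraries and -0.24, -0.16 and 0.36 in the WT libraries. Rhox8, centred in the same way, was at 0.28, 0.33 and 0.39 in the cKO libraries and -0.54, -0.40 and -0.05 in the WT libraries. Pregranulosa markers, centred likewise, were at -0.09, -0.09 and 0.15 in the cKO libraries and 0.11, 0.18 and -0.26 in the WT libraries. They were thus lowest in WT replicate 3, where Rhox8 and Rhox5 had their highest WT values. The part of oocyte or pregranulosa content in the Rhox values was not tested.

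**Figure D4:**
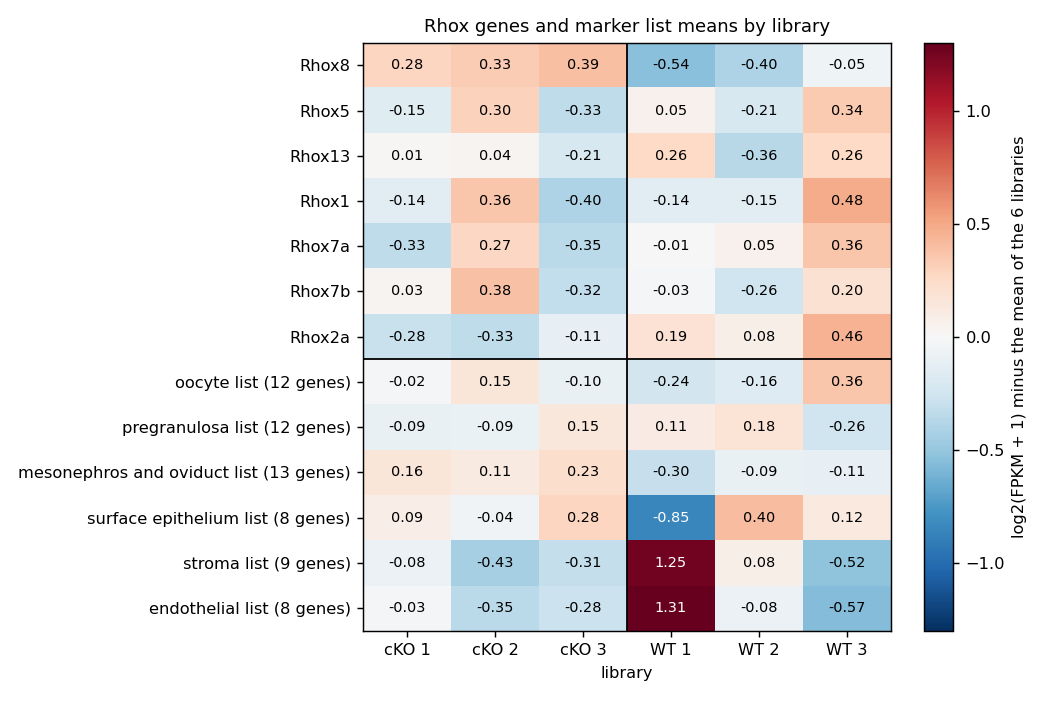
Log2(FPKM + 1) minus its mean over the 6 libraries, by library, for Rhox genes and for the means of marker lists, cKO libraries left of WT libraries. Rhox8 is above its mean in all cKO libraries and below it in all WT libraries, whereas the oocyte list peaks in WT replicate 3 at 0.36 and in cKO replicate 2 at 0.15.

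Genes with the most similar profile were sought by Pearson's r over the 6 libraries, among 11076 genes with an established symbol and a mean of at least 2 FPKM. With 6 points that share depth and tissue makeup, such values are a description. Rhox8 was picked for cKO values above all WT values, so genes most like it tend to show the same split. For Rhox8 the closest were Trappc6b, which encodes a subunit of a vesicle tethering complex, with r of 0.98, Fbxo8, an F-box protein gene, with 0.98, and Osgep, a tRNA-modifying enzyme gene, with 0.97. Trappc6b measured 17.9, 18.2 and 18.3 FPKM in the cKO libraries and 14.98, 16.1 and 17.0 FPKM in the WT libraries, the same order of libraries as Rhox8 with a smaller range. In all, 67 of the compared genes, or 0.605%, reached r of 0.9 with Rhox8.

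For Rhox5 the closest were Gpr137c, with r of 1.00 after rounding, Rnf113a2, with 0.99, and Pkmyt1, which encodes an inhibitory kinase of cell-cycle entry, with 0.98. Gpr137c measured 4.61, 5.94 and 4.03 FPKM in the cKO libraries and 5.24, 4.41 and 6.04 FPKM in the WT libraries. For Rhox13 the closest were Camk2b, a calmodulin-dependent kinase gene, with 0.98, Epn2, an endocytic adaptor gene, with 0.97, and Odf2, a centriole and sperm-tail gene, with 0.97. At r of 0.9 stood 0.65% of the compared genes for Rhox5 and 0.316% for Rhox13.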

How the data were processed

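Total RNA of mouse ovaries was sequenced in 3 cKO and 3 WT libraries, grouped by the labels. The submitters' processing notes name HISAT2 2.0.5, with both mm10 and GRCm39 as genome builds. The authors deposited 1 table of FPKM values, and its gene coordinates were used as given. The counting tool, strand setting and read length are not stated in the labels. FPKM times gene length gave whole reads within 0.05 for 100% of values. Counting intervals (95%, exact Poisson) cover counting error only. Differences were fitted with limma 3.58.1 in R 4.3.3 (lmFit, eBayes with trend, two-sided) on log2(FPKM + 1), for genes with at least 1 FPKM in at least 3 of 6 samples, with Benjamini-Hochberg adjustment over 14589 genes. The pseudocount understates changes of low genes. The fit was tested on simulated counts with large changes, the same dispersion for every gene and no outlying library. That setting is unlike these libraries, so it does not show how well small differences would be found here. The members and lists were chosen with earlier results of these data known. Named genes were the members, the tested Rhox genes, the highest untested ones, Bcas2, listed regulators, the nearest tested neighbours, and the 3 genes most alike. Marker genes were named after their values were seen. Alternatives changed pseudocount, filter, scaling, spread model, block and libraries.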

Additional observations from a re-analysis of the deposited data

How the results depend on the processing

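The Rhox8 difference lay between 0.56 and 0.80 under the 18 alternatives and when 1 library was left out. Its sign is fixed by the choice of a gene whose groups do not overlap and is no sign of stability. Bcas2 stayed lower, between -1.16 and -0.86. Genes called were 0 in the fit reported and 1 with array weights, without cKO replicate 2, and without WT replicate 1 and cKO replicate 2 together (chosen after seeing the data), so the range on leaving out 1 library was 0 to 1. Unadjusted counts were 1990 with array weights, 1056 when WT replicate 3 was left out, 702, 293 and 253 when cKO replicates 3, 1 and 2 were, 1147 with no filter and 254 at 5 FPKM, beside 443. Small differences turned sign. Rhox5 was 0.044 with array weights and -0.30 to 0.015 when 1 library was left out, turning without WT replicate 3 (0.015) and cKO replicate 3 (0.01). Rhox13 was 0.24 with array weights and, when 1 library was left out, -0.31 (WT replicate 2 left out) to -0.0032 (WT replicate 3 left out), near 0 also when WT replicate 1 (-0.0036) or cKO replicate 3 (-0.028) was left out. Rhox7a was -0.48 when cKO replicate 2 was left out and -0.16 to -0.18 when WT replicate 3, cKO replicate 3 or cKO replicate 1 was. Rhox1 ranged over -0.33 to 0.087 when 1 library was left out, turning with WT replicate 3 (0.087) or cKO replicate 3 (0.048) absent, and Rhox7b ranged over -0.11 to 0.23. Rhox7b was -0.0007 on a TPM scale, -0.06 without WT replicate 2, -0.11 without cKO replicate 2 and -0.11 without that library and WT replicate 1 together. The cause was not tested. Rhox2a, Rhox7a and Rhox7-ps1 stayed below 0. For Rhox2a and Rhox7-ps1, whose groups do not overlap, leaving out a library could not turn the sign, so this is no sign of stability. With the replicate block 0 genes were called and 432 had an unadjusted p under 0.05, and Rhox8 was at 0.66. Deviations of same-numbered libraries correlated at 0.22, 0.01 and -0.03, beside -0.34 to 0.32 for differently numbered ones. With 3 libraries per group, such values cannot decide whether the numbers pair the libraries. The planned edgeR test was not run, since the files hold FPKM, and limma-voom on recovered reads, chosen after seeing the data, took its place with Rhox8 at 0.75. Depth limits Rhox6, Rhox9 and Rhox10, which had 1 to 14 reads per library.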
